A study of Mus musculus with 56 samples.

Results

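The 48 genes described here encode the working parts of the lysosome, in 4 classes fixed by function: 8 cathepsins, 14 other hydrolases, 10 membrane and lipid-transfer proteins, and 16 subunits of the proton pump. They were taken from a list of gene names, and 45 of the 48 had a probe detected (p under 0.05 against negative controls) in 6 or more of 56 arrays. Cd68, Npc1 and Atp6v0c lacked a probe annotated to them and were not analysed here. The arrays measured hippocampal RNA of adult male NMRI mice older than 12 weeks, 1 mouse per array. The naive mice never given pilocarpine received vehicle (n = 6). The 3 epileptic groups had all received pilocarpine at 300 mg/kg after N-methylscopolamine, which started a status epilepticus that diazepam ended, and then vehicle (n = 17), PLX3397 at 3 mg/kg (n = 18) or PLX3397 at 30 mg/kg (n = 15) by daily gavage. The doses of PLX3397 are called low and high where ranges are given. PLX3397 inhibits the receptor tyrosine kinase Csf1R, on which microglia depend. The labels give 7 days of dosing, whereas the design text of the series gives a longer course. No naive mouse received PLX3397, so the drug was compared within epileptic mice only.

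Lysosomes break down proteins, lipids, glycans and glycogen delivered by endocytosis, phagocytosis and autophagy. Their hydrolases work in an acid lumen, which the vacuolar ATPase keeps acid by pumping protons. Its V1 sector outside the membrane burns ATP, and its V0 sector within the membrane carries the protons. In brain the phagocytic microglia are rich in lysosomes, while neurons also use the same pump to fill synaptic vesicles with transmitter. Loss of many of these enzymes causes lysosomal storage diseases, several of them with seizures.

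Values are log2 probe signals after quantile normalization between arrays, and a difference is a difference of group means on that log2 scale. One probe, that of highest mean signal, stood for each gene, and the level of 1 probe was not set against that of another. Groups were compared in 1 limma model over 9893 genes, and a gene was called higher or lower at a Benjamini-Hochberg adjusted p under 0.05. The median signal of an array was 109.2 to 150.8 before normalization, and 44.3 to 49.8% of probes were detected. Of 12 neuronal marker genes kept, 11 were detected on all arrays. Most of the 45 genes were detected on all 56 arrays. Ctss and Gla, however, were detected on 6 arrays each, Npc2 on 36, Lipa on 39, Ctsd on 42 and Ctsl on 46, so their values lay at or near the level of the negative control probes and can hide a change.

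Many lysosomal genes are bound by the transcription factor TFEB through an element whose core is the E-box CACGTG. The promoter windows of RefSeq on GRCm38.p6, from 250 bases before to 50 after a listed start site, held 38 of the 45 genes. For some genes, among them Ctsa, Lgmn and Atp6v1a, that site lay inside the gene and not at its end. CACGTG was found in 14 of the 38 (36.8%), beside 8.09% of all 27025 genes in the table. The longer TCACGTGA, which contains it, was found in 6 of the 38 (15.8%), beside 1.12% of all genes. Both words read the same on either strand. The windows of 5 genes that changed in epilepsy are shown because they hold the element in different forms, with each CACGTG or TCACGTGA in capitals.
Ctsa chr2:164833523-164833822 (+ strand): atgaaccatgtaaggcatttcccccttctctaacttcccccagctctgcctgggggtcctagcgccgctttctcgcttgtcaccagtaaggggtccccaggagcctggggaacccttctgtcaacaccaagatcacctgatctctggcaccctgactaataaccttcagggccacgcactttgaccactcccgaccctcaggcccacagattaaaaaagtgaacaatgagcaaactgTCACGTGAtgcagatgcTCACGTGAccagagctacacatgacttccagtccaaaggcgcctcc
Atp6v0e chr17:26676146-26676445 (+ strand): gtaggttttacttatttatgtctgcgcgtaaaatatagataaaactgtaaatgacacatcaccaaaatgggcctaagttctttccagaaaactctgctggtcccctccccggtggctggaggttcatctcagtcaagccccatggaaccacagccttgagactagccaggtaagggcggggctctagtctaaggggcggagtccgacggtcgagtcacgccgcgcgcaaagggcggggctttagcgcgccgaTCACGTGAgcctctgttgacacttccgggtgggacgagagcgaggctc
Atp6v0b chr4:117887280-117887579 (- strand): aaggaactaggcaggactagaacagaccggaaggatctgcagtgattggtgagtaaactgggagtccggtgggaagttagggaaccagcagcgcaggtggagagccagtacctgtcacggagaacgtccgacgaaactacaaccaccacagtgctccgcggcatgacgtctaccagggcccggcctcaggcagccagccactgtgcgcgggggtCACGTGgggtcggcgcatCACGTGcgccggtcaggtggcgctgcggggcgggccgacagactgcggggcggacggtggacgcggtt
Lamp1 chr8:13158911-13159210 (+ strand): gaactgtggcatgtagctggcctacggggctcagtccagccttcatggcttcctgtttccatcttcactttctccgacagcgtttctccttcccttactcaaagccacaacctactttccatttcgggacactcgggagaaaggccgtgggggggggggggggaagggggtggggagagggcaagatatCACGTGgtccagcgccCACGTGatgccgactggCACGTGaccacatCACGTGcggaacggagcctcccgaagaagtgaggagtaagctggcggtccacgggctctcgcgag
Gaa chr11:119267713-119268012 (+ strand): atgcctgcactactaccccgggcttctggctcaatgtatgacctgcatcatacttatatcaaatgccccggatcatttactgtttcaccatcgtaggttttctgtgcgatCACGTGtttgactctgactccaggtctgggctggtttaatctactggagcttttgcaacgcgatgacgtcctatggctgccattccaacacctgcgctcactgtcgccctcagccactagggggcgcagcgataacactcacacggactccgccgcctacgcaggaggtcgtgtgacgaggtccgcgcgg

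Ctsa held TCACGTGA 2 times close to its listed start site, Atp6v0e held it 1 time, Atp6v0b held CACGTG 2 times and Lamp1 held it 4 times, whereas Gaa held 1 copy farther from its start. Against naive mice, epileptic vehicle mice were higher for the first 4 of these genes and lower for Gaa, as detailed below by class. These windows are examples, and others differed. Ctsl, with 1 copy still farther from its listed start site (236 bases, beside 140 for Gaa), was higher too. TCACGTGA was held by 6 genes, of which Ctsa and Atp6v0e were higher, and Atp6v0d1, Atp6v1a, Ctsd and Gla did not pass. Of the 14 genes with CACGTG, 6 were higher and 1 was lower in epilepsy, and of the 24 genes without it, among them Cd63, Man2b1, Ppt1 and Atp6v0a1, 12 were higher and 5 lower, beside 22.6% and 26.5% of all genes tested. A match does not show that a factor binds there.

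Enzymes and membrane proteins of the lysosome that passed the test in epileptic vehicle against naive mice were mostly higher. Pump genes that passed went both ways, as did genes in general. Of the 45 genes, 21 were higher, 7 were lower and 17 did not pass the test. Over all genes tested, 22.6% were higher and 26.5% lower. Called higher were 4 of 8 cathepsins, 7 of 14 other hydrolases and 5 of 8 membrane and lipid-transfer proteins, with 0, 1 and 1 called lower. Of 15 pump genes, 5 were higher and 5 lower (33.3% each), not far from the shares of all genes. At an unadjusted p under 0.05, again 0 cathepsins were lower, but all genes were not counted at that threshold. The median log2 difference was 0.17 for cathepsins, 0.16 for other hydrolases, 0.33 for membrane and lipid-transfer proteins and -0.11 for the pump, beside -0.01 over all genes. When arrays were only scaled to their median, 14 of the 45 were higher and 11 lower, and over all genes 26.2% of the calls were higher instead of 46.0%. The calls of Ctsa, Ctsz, Hexa, Lgmn, Lamp2, Gm2a, Atp6ap2 and Atp6v1e1 were lost in that way. In 9 genes every epileptic vehicle mouse exceeded every naive mouse, and in 1 every epileptic mouse lay below, beside 6.54% and 8.6% of all genes.

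**Figure D1:**
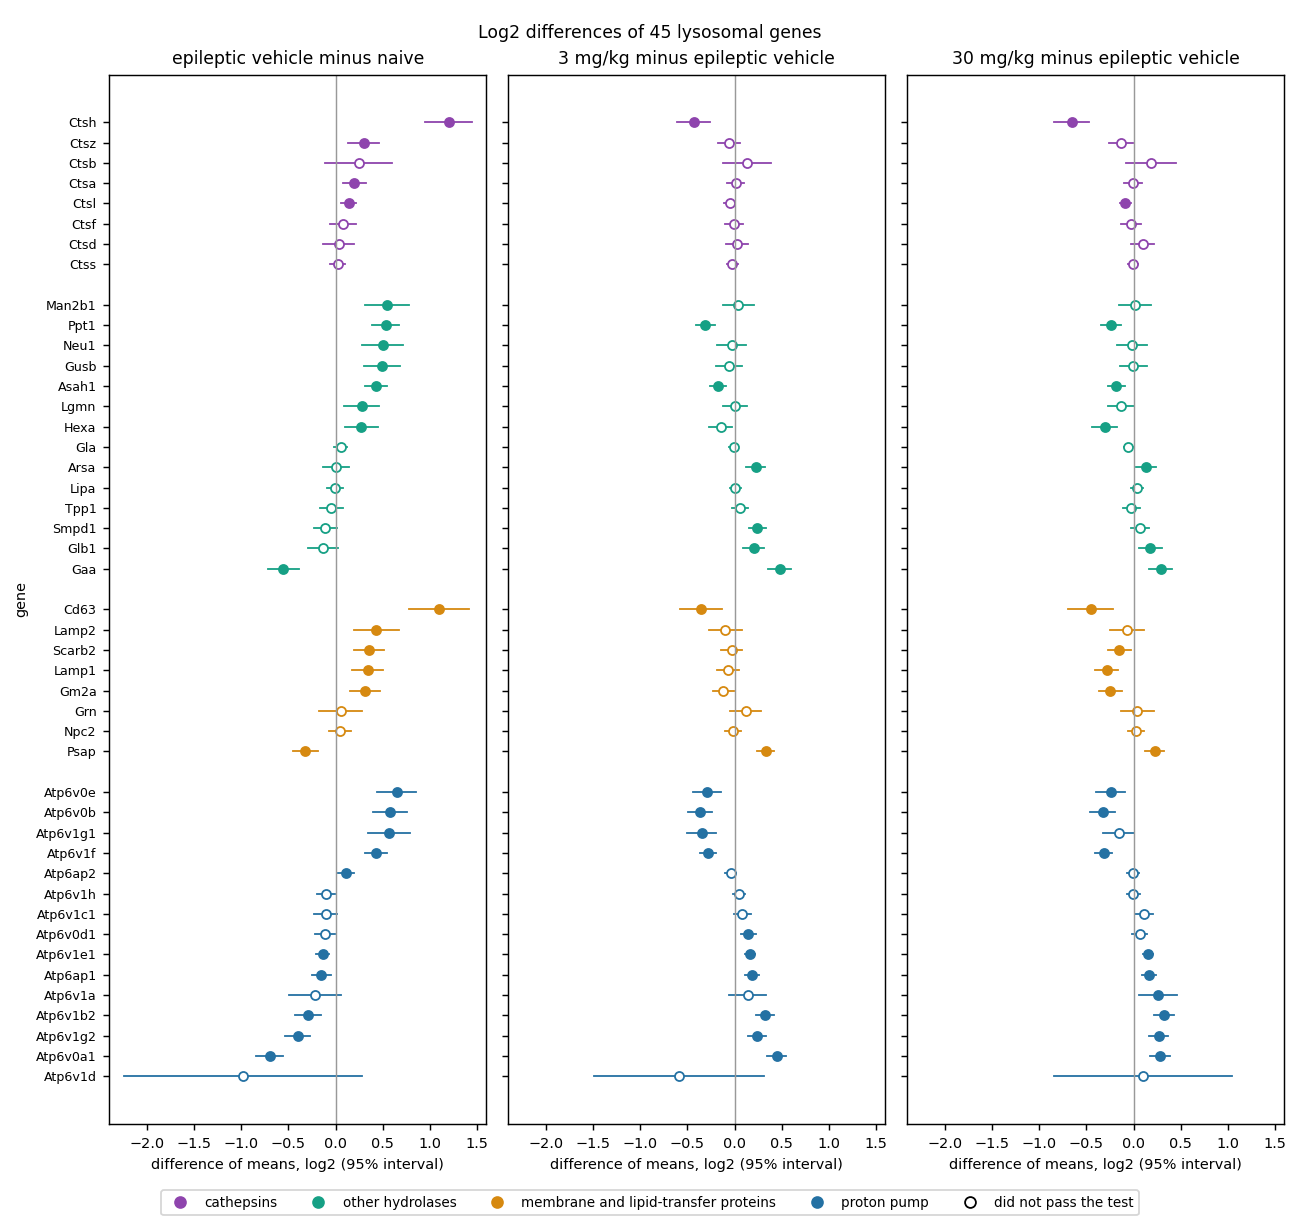
Difference of group means on the log2 scale (horizontal axis, with its 95% interval) for the 45 genes (vertical axis), ordered by the first panel within 4 coloured classes; filled points passed the test. The pump genes lie on both sides of 0 in epilepsy, from 0.65 for Atp6v0e to -0.70 for Atp6v0a1 among those called, and Ctsh and Cd63 stand farthest to the right.

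Among the cathepsins, the change was led by Ctsh, which encodes cathepsin H, an aminopeptidase. Its log2 level spanned 8.40 to 8.87 (median 8.56) among the naive animals, 9.42 to 10.29 (9.65) among vehicle-treated epileptic animals, 9.01 to 9.82 (9.28) on the low dose and 8.64 to 9.55 (9.13) on the high dose. The naive and the epileptic vehicle mice did not overlap, and the medians of both doses lay between theirs, with some mice of the high dose in the naive range. Ctsh was 2.30-fold higher in epilepsy, a log2 difference of 1.2 (SE 0.125, limma adjusted p = 1.22e-11). It was lower than in epileptic vehicle mice by a difference of -0.66 at 30 mg/kg (SE 0.09, adjusted p = 2.77e-07), and by -0.43 at 3 mg/kg (SE 0.09, adjusted p = 8.12e-05). The vehicle median exceeded 15 of 15 mice on the high and 15 of 18 on the low dose. Against naive mice it was still higher, by 0.54 at 30 mg/kg (adjusted p = 0.000693) and by 0.77 at 3 mg/kg (adjusted p = 4.46e-06). The difference between the doses, -0.22 (95% interval -0.41 to -0.04), did not pass after adjustment (adjusted p = 0.195).

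The other cathepsins changed little. Ctsz, a carboxypeptidase, was higher in epilepsy by 0.30 (SE 0.08, adjusted p = 0.00207), Ctsa, the protective protein that stabilizes neuraminidase and beta-galactosidase, by 0.20 (SE 0.06, adjusted p = 0.00577) and Ctsl, an endopeptidase, by 0.14 (SE 0.04, adjusted p = 0.00244). With PLX3397 none of the 8 cathepsins was called higher at either dose, beside 18.5% of all genes at 3 mg/kg and 16.3% at 30 mg/kg. For so few genes a count of 0 is near those shares. It was also 0 at an unadjusted p under 0.05, where all genes were not counted. Ctsd, near background, passed at 30 mg/kg against vehicle mice with replicate numbers blocked, and its main means there were 7.29 and 7.19. Ctsh was lower at both doses, and Ctsl at 30 mg/kg, by -0.09 (SE 0.03, adjusted p = 0.0176), a call that ended when the run of submitter numbers was blocked. Ctsb, the abundant cysteine protease cathepsin B, passed in none of the 6 comparisons. Its log2 levels spread from 10.26 to 11.81 over all mice, and at 30 mg/kg it stood above naive mice by 0.43 (SE 0.18, adjusted p = 0.0607). These values moved with the uneven runs of submitter numbers. Within the runs the difference of Ctsb at 30 mg/kg was 0.08 to 0.21 against naive mice, and -0.31 to -0.03 against vehicle mice, where all mice together gave 0.19. With the run or sets of 8 numbers blocked, Ctsb was called higher in epilepsy and at 3 mg/kg against naive mice. At 30 mg/kg against naive mice it was called with sets of 8 blocked, array weights, a stricter filter or only those groups in the fit.

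Several patterns could be read among the other hydrolases. The first was a rise in epilepsy with lower levels under the drug, as in Ppt1, the palmitoyl thioesterase that is lost in infantile neuronal ceroid lipofuscinosis. Its log2 signal ran from 8.73 to 8.98 (median 8.86) among the naive animals, 9.15 to 9.65 (9.39) among vehicle-treated epileptic animals, 8.73 to 9.28 (9.09) on the low dose and 8.82 to 9.39 (9.17) on the high dose. No epileptic vehicle mouse overlapped the naive range. Ppt1 was higher in epilepsy by 0.53 (SE 0.07, adjusted p = 6.49e-09), lower than in vehicle mice at 3 mg/kg by -0.31 (SE 0.05, adjusted p = 1.67e-06) and at 30 mg/kg by -0.24 (SE 0.05, adjusted p = 0.000307). Asah1, the acid ceramidase, was higher in epilepsy by 0.43 (SE 0.06, adjusted p = 1.67e-08) and lower at both doses, by -0.18 at each (adjusted p = 0.000512 at 3 mg/kg and 0.00091 at 30 mg/kg). Both were above naive mice at both doses, calls that were lost after median scaling. A dimmer probe of Asah1 was called at neither dose against vehicle mice. Hexa, the alpha subunit of beta-hexosaminidase that degrades ganglioside GM2, was higher by 0.27 (adjusted p = 0.00743) and lower at 30 mg/kg by -0.30 (SE 0.07, adjusted p = 0.000249). At 3 mg/kg its difference was -0.15 (adjusted p = 0.0576).

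The second pattern was a rise in epilepsy with no call under the drug. Man2b1, the lysosomal alpha-mannosidase, on the log2 scale covered 9.38 to 9.43 (median 9.42) among the naive animals, 9.46 to 10.66 (9.84) among vehicle-treated epileptic animals, 9.48 to 10.37 (9.99) on the low dose and 9.70 to 10.30 (9.94) on the high dose. Each of the 3 epileptic groups lay wholly above the naive mice, and the groups themselves overlapped almost fully. Its difference from naive mice was 0.55 in vehicle mice (SE 0.12, adjusted p = 7.27e-05), 0.59 at 3 mg/kg (adjusted p = 9.23e-05) and 0.56 at 30 mg/kg (adjusted p = 0.000169). Against epileptic vehicle mice the difference at 30 mg/kg was 0.02, with a 95% interval of -0.16 to 0.19. Gusb, beta-glucuronidase, behaved in the same way, with 8.51 to 8.56 (median 8.53) among the naive animals, 8.71 to 9.57 (8.91) among vehicle-treated epileptic animals, 8.72 to 9.25 (8.90) on the low dose and 8.84 to 9.38 (9.03) on the high dose. It was higher in epilepsy by 0.49 (SE 0.095, adjusted p = 1.58e-05) and differed from vehicle mice at 30 mg/kg by -0.002, with a 95% interval of -0.14 to 0.14. Its 2 dimmer probes were higher in epilepsy too, but neither was called against naive mice at either dose (adjusted p over probes 0.0652 to 0.319). Neu1, the sialidase, was higher by 0.50 (SE 0.11, adjusted p = 8.06e-05) and at 30 mg/kg differed from vehicle mice by -0.02 (adjusted p = 0.904). A p that misses the threshold does not show that levels were equal, but for Man2b1 and Gusb the intervals leave out a fall as large as their rise in epilepsy.

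The third pattern ran the other way. Gaa, the acid alpha-glucosidase that degrades glycogen, was the 1 hydrolase of the 14 called lower in epilepsy. This held for the brightest probes, since a dimmer probe of Smpd1 was lower too, by a difference of -0.27 (adjusted p over probes 0.000535), and since Glb1, Tpp1 and Smpd1 were called lower after median scaling. The log2 level of Gaa was spread over 11.48 to 11.89 (median 11.79) among the naive animals, 10.94 to 11.58 (11.21) among vehicle-treated epileptic animals, 11.30 to 11.96 (11.67) on the low dose and 11.12 to 11.83 (11.51) on the high dose. The naive and vehicle mice overlapped only between 11.48 and 11.58. Gaa was lower in epilepsy by a difference of -0.55 (SE 0.08, adjusted p = 1.25e-07) and higher than in vehicle mice by 0.48 at 3 mg/kg (SE 0.06, adjusted p = 9.58e-09) and by 0.29 at 30 mg/kg (SE 0.06, adjusted p = 0.000252). At 30 mg/kg it remained below naive mice, by -0.27 (adjusted p = 0.0117). Glb1, beta-galactosidase, and Arsa, arylsulfatase A, did not pass in epilepsy but were higher than in vehicle mice at 3 mg/kg, by 0.20 (SE 0.06, adjusted p = 0.00407) and 0.23 (SE 0.05, adjusted p = 0.000273). At 30 mg/kg they were higher by 0.18 (adjusted p = 0.0194) and 0.13 (adjusted p = 0.044), and these 2 calls ended with the run as a block. Smpd1, the acid sphingomyelinase, was higher at 3 mg/kg by 0.24 (SE 0.04, adjusted p = 2.06e-05) and lower at 30 than at 3 mg/kg by -0.18 (SE 0.05, adjusted p = 0.0287). The latter call was lost after median scaling, with sets of 8 or replicate numbers blocked, in the later run alone and without high dose replicate 5, 6 or 7.

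Of the membrane and lipid-transfer proteins, Cd63, a tetraspanin of late endosomes and lysosomes, changed most. The log2 level of Cd63 extended over 10.77 to 11.29 (median 11.07) among the naive animals, 11.57 to 12.95 (12.08) among vehicle-treated epileptic animals, 11.22 to 12.34 (11.74) on the low dose and 10.95 to 12.14 (11.59) on the high dose. The naive and vehicle mice did not overlap, and at each dose some mice reached the naive range. Cd63 was 2.14-fold higher in epilepsy, by 1.10 (SE 0.16, adjusted p = 5.57e-08), and lower than in vehicle mice by -0.36 at 3 mg/kg (SE 0.11, adjusted p = 0.00997) and by -0.46 at 30 mg/kg (SE 0.12, adjusted p = 0.00203). The call at 3 mg/kg ended when sets of 8 submitter numbers were blocked. Both doses stayed above naive mice, by 0.74 (adjusted p = 0.00028) and 0.64 (adjusted p = 0.00158).

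Lamp1 is an abundant glycoprotein of the lysosomal membrane. Lamp1 on the log2 scale ranged over 11.48 to 11.98 (median 11.77) among the naive animals, 11.77 to 12.70 (12.10) among vehicle-treated epileptic animals, 11.79 to 12.29 (12.02) on the low dose and 11.57 to 12.05 (11.80) on the high dose. It was higher in epilepsy by 0.34 (SE 0.08, adjusted p = 0.00038) and lower than in vehicle mice at 30 mg/kg by -0.28 (SE 0.06, adjusted p = 0.000242), where its difference from naive mice was 0.06 (adjusted p = 0.638). At 3 mg/kg the difference from vehicle mice was -0.07 (adjusted p = 0.357), and the doses differed by -0.21 (SE 0.06, adjusted p = 0.0441). That difference between doses was lost with the run or sets of 8 numbers blocked, after median scaling, with no detection filter, in the later run alone and in 19 of 33 fits without 1 mouse. Lamp2, its relative needed for autophagy, was higher in epilepsy by 0.43 (SE 0.12, adjusted p = 0.00204) and passed against vehicle mice at neither dose. Its difference at 30 mg/kg was -0.07, but -0.37 to -0.13 within the runs, and it was called lower with sets of 8 numbers blocked. Gm2a, the activator protein that presents ganglioside GM2 to hexosaminidase, was lower at 30 mg/kg by -0.25 (SE 0.06, adjusted p = 0.000962), as was Scarb2, a membrane protein that carries glucocerebrosidase to the lysosome, by -0.15 (adjusted p = 0.0445). The call of Scarb2 ended when 1 mouse was left out in 17 of 32 such fits. Psap, the precursor of the saposins that present sphingolipids to their hydrolases, opposed its class. Psap on the log2 scale reached from 13.59 to 13.86 (median 13.65) among the naive animals, 13.14 to 13.69 (13.33) among vehicle-treated epileptic animals, 13.51 to 13.88 (13.74) on the low dose and 13.35 to 13.84 (13.62) on the high dose. Psap was lower in epilepsy by a difference of -0.32 (SE 0.06, adjusted p = 3.64e-05) and higher than in vehicle mice by 0.33 at 3 mg/kg (SE 0.05, adjusted p = 8.71e-08) and 0.22 at 30 mg/kg (SE 0.05, adjusted p = 0.000275), and at neither dose did its difference from naive mice pass.

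**Figure D2:**
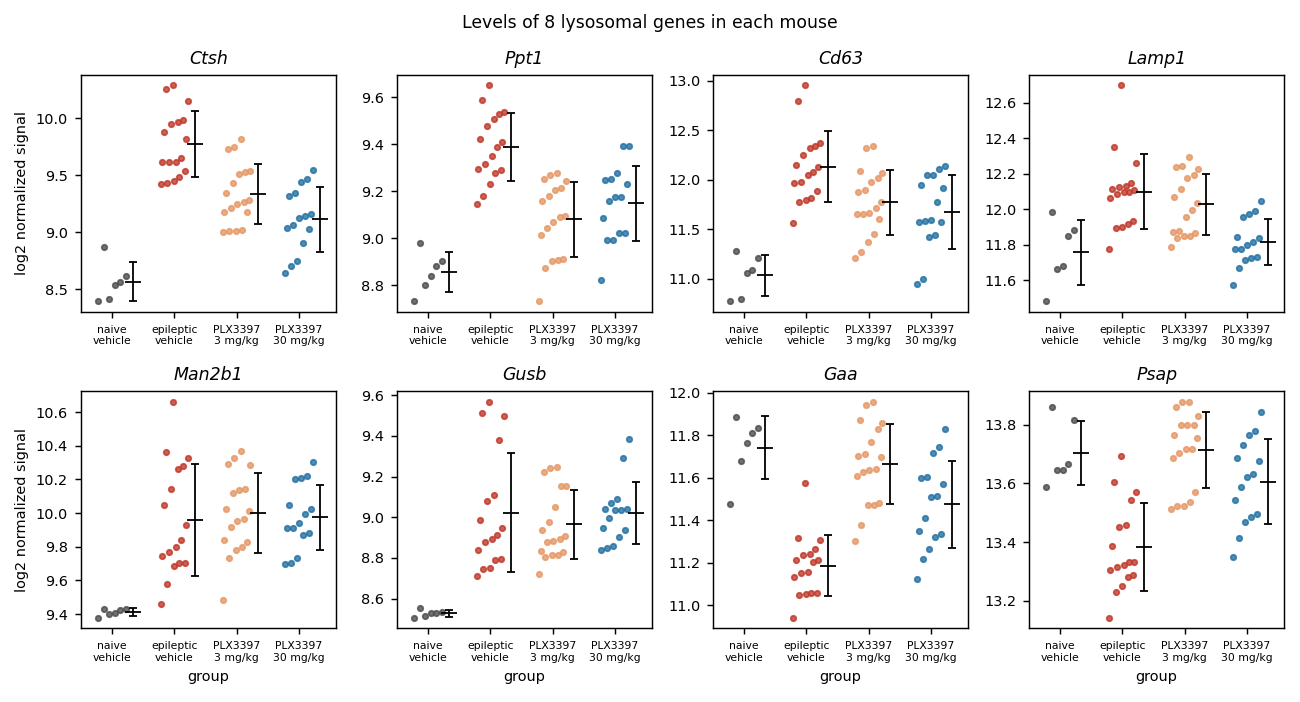
Log2 normalized signal (vertical axis, own range for each gene) of 8 lysosomal genes in each mouse of the 4 groups (horizontal axis); bars give the mean ± SD. Ctsh, Ppt1, Cd63 and Lamp1 were high in epileptic vehicle mice and lower at 30 mg/kg. By the probes shown, Man2b1 and Gusb stayed high in all 3 epileptic groups, and Gaa and Psap were low in epileptic vehicle mice.

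Both sectors of the proton pump held subunits that were higher and subunits that were lower in epilepsy. Of 4 V0 subunits, 2 were higher and 1 lower, and of 9 V1 subunits, 2 were higher and 3 lower, the latter close to the 22.6% and 26.5% of all genes. Among the higher was Atp6v0b, a proteolipid of the membrane ring that carries the protons. Its log2 signal stretched over 10.90 to 11.15 (median 10.94) among the naive animals, 11.18 to 11.82 (11.58) among vehicle-treated epileptic animals, 10.79 to 11.48 (11.17) on the low dose and 10.93 to 11.55 (11.23) on the high dose. No vehicle mouse reached the naive range, and mice of both doses did. Atp6v0b was 1.49-fold higher in epilepsy, by 0.58 (SE 0.09, adjusted p = 2.1e-07), and lower than in vehicle mice by -0.37 at 3 mg/kg (SE 0.06, adjusted p = 4.01e-06) and by -0.33 at 30 mg/kg (SE 0.07, adjusted p = 9.59e-05).

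Other subunits were also highest in epileptic vehicle mice. Atp6v0e, a membrane subunit, was higher in epilepsy by 0.65 (SE 0.10, adjusted p = 4.02e-07), and Atp6v1f, of the central shaft, by 0.43 (SE 0.06, adjusted p = 1.26e-08). Both were lower than in vehicle mice at both doses, Atp6v0e by -0.29 on the low dose (adjusted p = 0.00101) and -0.24 on the high dose (adjusted p = 0.0118), and Atp6v1f by -0.28 (adjusted p = 2.55e-07) and -0.32 (adjusted p = 1.43e-07). Atp6v1g1, the peripheral stalk subunit found in many tissues, was higher in epilepsy by 0.57 (SE 0.11, adjusted p = 1.87e-05) and lower at 3 mg/kg by -0.35 (SE 0.08, adjusted p = 0.000307), and at 30 mg/kg its difference was -0.16 (adjusted p = 0.145). Within the runs the latter was -0.33 to -0.25, and it was called lower with the run or sets of 8 numbers blocked or with array weights.

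Other subunits were lowest in epileptic vehicle mice. Atp6v0a1, the large membrane subunit of the neuronal pump, on the log2 scale spanned 11.92 to 12.11 (median 12.03) among the naive animals, 11.13 to 11.68 (11.31) among vehicle-treated epileptic animals, 11.46 to 12.02 (11.80) on the low dose and 11.25 to 11.92 (11.62) on the high dose. Every epileptic vehicle mouse lay below every naive mouse. The difference in epilepsy was -0.70 (SE 0.07, adjusted p = 9.78e-12), and against vehicle mice it was 0.45 at 3 mg/kg (SE 0.05, adjusted p = 2.1e-09) and 0.28 at 30 mg/kg (SE 0.05, adjusted p = 4.27e-05). Both doses were still below naive mice, by differences of -0.25 (adjusted p = 0.00613) and -0.41 (adjusted p = 1.31e-05). Atp6v1g2, the stalk subunit of neurons and close relative of Atp6v1g1, was lower in epilepsy by a difference of -0.40 (SE 0.07, adjusted p = 1.16e-06). By their brightest probes the G subunits thus moved in opposite directions. A dimmer probe of Atp6v1g2 gave -0.17 in epilepsy and was not called (adjusted p over probes 0.104). Atp6v1g2 was higher than in vehicle mice by 0.24 at 3 mg/kg (SE 0.05, adjusted p = 4.91e-05) and 0.27 at 30 mg/kg (SE 0.05, adjusted p = 3.03e-05). Atp6v1b2, a catalytic-hexamer subunit that in brain replaces a kidney form, was lower by a difference of -0.30 (SE 0.07, adjusted p = 0.000274) and higher by 0.32 at each dose (adjusted p = 4.54e-07 at 3 mg/kg and 2.55e-06 at 30 mg/kg). Atp6v1e1, of the stalk, and Atp6ap1, an assembly factor, were lower in epilepsy by differences of -0.14 and -0.15. Both were higher than in vehicle mice at both doses, by 0.16 to 0.18, where their means over all mice lay slightly above those of naive mice. Within the runs, however, the difference from naive mice at 30 mg/kg was -0.032 to -0.029 for Atp6ap1 and -0.014 to 0.079 for Atp6v1e1. The call of Atp6ap1 in epilepsy was lost without naive replicate 4 or 6. Atp6ap2, the prorenin receptor, was higher by 0.12 (SE 0.04, adjusted p = 0.0185), a call lost without naive replicate 1 or 2.

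**Figure D3:**
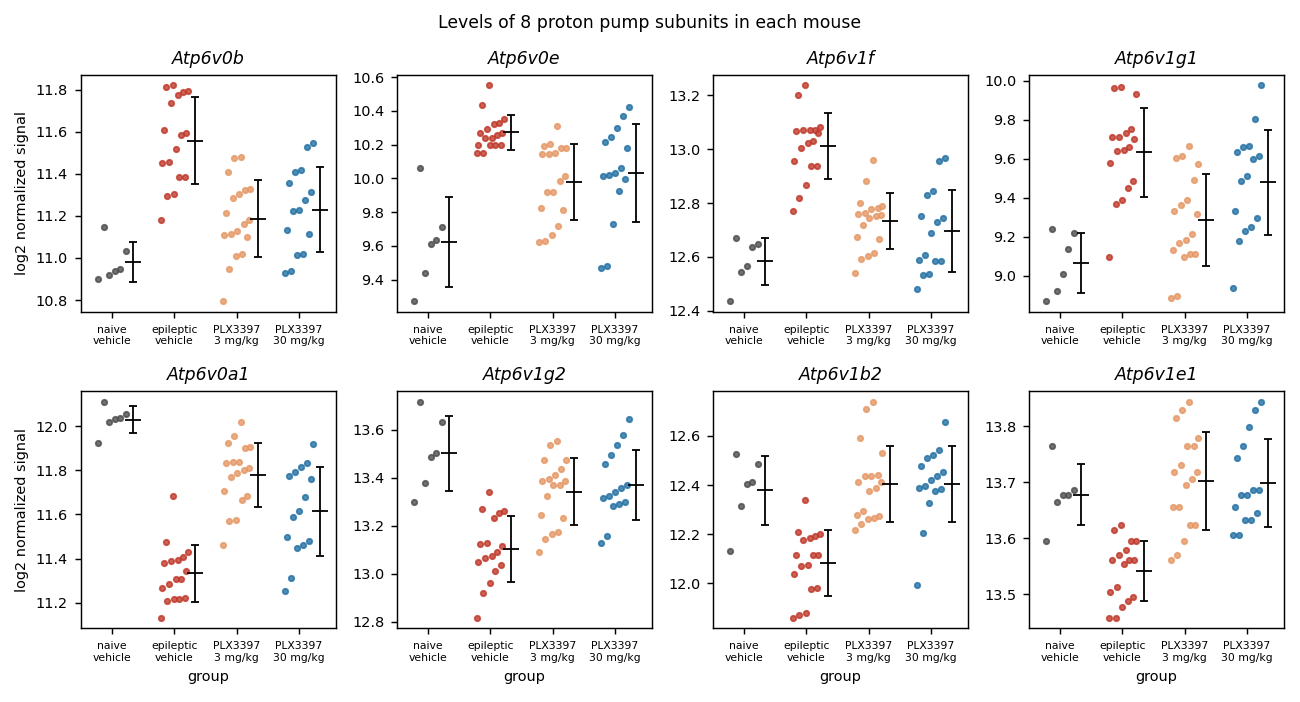
Log2 normalized signal (vertical axis, own range for each gene) of 8 proton pump subunits in each mouse of the 4 groups (horizontal axis); bars give the mean ± SD. In the upper row epileptic vehicle mice are the highest group, and in the lower row they are the lowest, with all vehicle mice below all naive mice for Atp6v0a1.

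Atp6v1d, a subunit of the central shaft, was chosen for mention after its values were seen. Its log2 levels fell in separate ranges, 7.49 to 8.18 in 16 mice and 10.14 to 11.64 in the other 40, with no mouse between. All 6 naive mice were in the upper range. In the lower range were 3 of 17 epileptic vehicle mice, 9 of 18 on the low dose and 4 of 15 on the high dose. With this spread it passed in none of the comparisons (adjusted p = 0.0555 for 3 mg/kg against naive mice, the smallest). At 3 mg/kg against naive mice it was called lower with sets of 8 numbers blocked, with array weights and with the stricter filter. Without it the counts of genes called were the same.

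**Figure D4:**
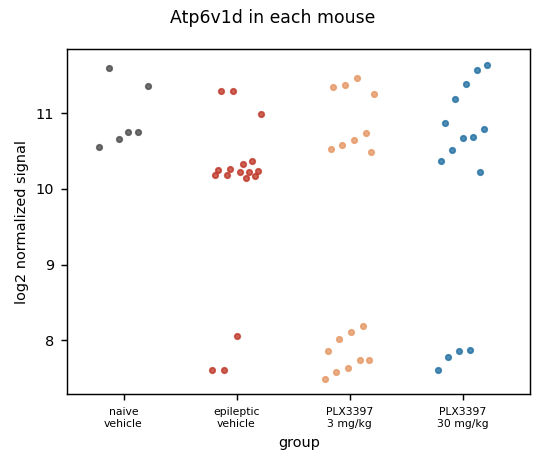
Log2 normalized signal of Atp6v1d (vertical axis) in each mouse of the 4 groups (horizontal axis), 1 point per mouse. In 16 of 56 mice, none of them naive, the level lay at 8.18 or below, and in the other 40 at 10.14 or above.

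With PLX3397 at 30 mg/kg, 10 of the 45 genes were higher than in epileptic vehicle mice and 12 lower, beside 16.3% and 15.7% of all genes. At 3 mg/kg 11 were higher and 8 lower, beside 18.5% and 16.9%. Of the membrane and lipid-transfer proteins 4 of 8 were lower at 30 mg/kg and 1 of 8 at 3 mg/kg, and of the pump genes 6 of 15 were higher at each dose and 3 and 4 lower. The direct comparison of the doses called 0 genes higher and 2 lower at 30 mg/kg (Lamp1 and Smpd1), beside 0.92% and 1.25% of all genes. Neither of these calls remained once sets of 8 sample numbers were blocked. At an unadjusted p under 0.05 the comparison gave 1 higher and 10 lower, but all genes were not counted at that threshold. The unadjusted counts therefore cannot be read as a trait of the lysosomal genes. After median scaling 10 were higher and 6 lower on the high dose, and 13 and 6 on the low dose, and over all genes the share of calls that were higher was 71.2% instead of 51.0% and 79.3% instead of 52.3%. Lost in that way were the calls of Asah1, Atp6v0e and Atp6v1e1 at both doses and those of Ctsl, Ppt1, Scarb2 and Gm2a at 30 mg/kg.

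The treated mice were also set against the naive mice. These comparisons and those against vehicle mice share the treated mice, and the epilepsy and drug comparisons share the vehicle mice, so the values are given side by side and their agreement is not counted. At 30 mg/kg 14 of the 45 genes were higher than in naive mice and 2 lower (Gaa and Atp6v0a1), beside 13.1% and 17.5% of all genes. At 3 mg/kg 16 were higher and 1 lower (Atp6v0a1), beside 11.5% and 14.8%. After median scaling 6 were higher at either dose. Over all 9893 genes, those called higher then fell too, from 1300 to 480 at 30 mg/kg and from 1133 to 591 at 3 mg/kg. Lost at both doses were Ctsa, Ppt1, Asah1, Lamp2 and Atp6v0e, at 30 mg/kg also Scarb2, Atp6ap2 and Atp6v0b, and at 3 mg/kg also Ctsz, Lgmn, Arsa, Lamp1 and Atp6v1f. Of the 9 V1 subunits, 1 was above naive mice at 30 mg/kg (Atp6v1g1, by 0.41, adjusted p = 0.00336) and 1 at 3 mg/kg (Atp6v1f, by 0.15, adjusted p = 0.0491), and the other 8 did not pass in either case.

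The groups also differed in cell type markers. Of 17 microglia markers kept, 15 were higher in epilepsy and 0 lower, 14 were lower at 30 mg/kg and 0 higher, and 9 were lower and 1 higher at 3 mg/kg. Their mean level, centered on each gene, was -0.45 to -0.26 in naive mice, -0.02 to 0.78 in epileptic vehicle mice, -0.14 to 0.28 at 3 mg/kg and -0.45 to 0.11 at 30 mg/kg. Of 12 neuron markers, 9 were lower in epilepsy, 8 were higher and 1 lower at 30 mg/kg and 9 were higher and 1 lower at 3 mg/kg, and their mean level was 0.21 to 0.42 in naive mice, -0.27 to -0.09 in epileptic vehicle mice, -0.16 to 0.21 at 3 mg/kg and -0.19 to 0.26 at 30 mg/kg. Of 10 astrocyte markers, 6 were higher in epilepsy, 5 were lower at 30 mg/kg and 4 were lower at 3 mg/kg. Their mean level was -0.53 to -0.37 in naive and -0.16 to 0.65 in vehicle mice, -0.31 to 0.46 on the low dose and -0.42 to 0.33 on the high dose. Of 5 macrophage markers, 3 were higher in epilepsy, 5 were lower at 30 mg/kg and 1 was lower at 3 mg/kg. In bulk tissue, fewer cells of a type and less RNA per cell cannot be told apart. The part of these cell types in the differences of the lysosomal genes was not tested.

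How each gene varied with these markers was examined among the 17 epileptic vehicle mice alone, all given pilocarpine and none the drug, as 135 relations of 45 genes with 3 lists. The severity of epilepsy may differ between these mice and was not part of the test. The median Pearson correlation with the microglia list was 0.49 for cathepsins, 0.68 for other hydrolases, 0.78 for membrane and lipid-transfer proteins and -0.08 for the pump. With a 2-sided permutation test adjusted over the 135 relations, 3, 8, 5 and 1 genes of these classes passed, all with a positive sign, and by Spearman's rho 2, 5, 4 and 0. The test was not run over all genes, so the share of other genes that would pass is not known. These counts therefore cannot be read as a trait of the lysosomal genes. With the astrocyte list 2 other hydrolases and 2 membrane and lipid-transfer proteins passed (class medians 0.41 and 0.56), and by rho 0 and 2. With the neuron list 0 genes passed by either measure. The level of that list varied little among these mice (SD 0.05, beside 0.24 for the microglia and 0.24 for the astrocyte list), which can hide a relation. For Gusb r was 0.92 (permutation p = 2e-05, adjusted p = 0.000771, n = 17) and Spearman's rho 0.81 (permutation, adjusted p = 0.00742), with r of 0.94 and 0.93 within the 2 runs of sample numbers and 0.87 without the 2 mice farthest from the median. For Ctsh r was 0.85 (permutation p = 4e-05, adjusted p = 0.000771) and rho 0.72 (adjusted p = 0.0239), with r of 0.85 and 0.88 within the runs and 0.72 without the 2 mice. Cd63 followed the astrocyte list as closely as the microglia list, with r of 0.83 for both. Psap, although lower in epilepsy than in naive mice, had an r of 0.78 with the microglia list among vehicle mice (permutation p = 0.0003, adjusted p = 0.00289), which was 0.57 without the 2 mice. Its rho of 0.62 did not pass (permutation p = 0.00897, adjusted p = 0.0712). Atp6v0b and Atp6v0a1 passed with none of the lists. Their r with the neuron list was -0.44 (adjusted p = 0.238) and 0.56 (adjusted p = 0.0928).

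**Figure D5:**
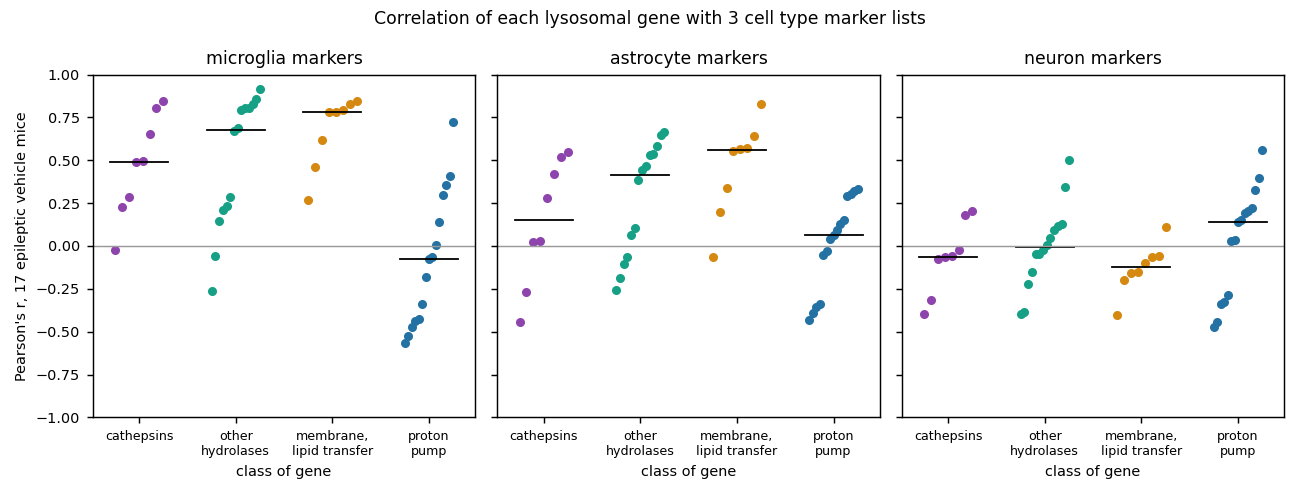
Pearson's r (vertical axis) between each of 45 genes and the mean level of 3 marker lists (panels) over the 17 epileptic vehicle mice, by class (horizontal axis); lines mark the class medians. For the microglia list the medians run from 0.78 in membrane and lipid-transfer proteins to -0.08 in the pump.

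Other genes of the lysosome, from 4 further lists, were described by their counts, to be read beside 22.6% higher and 26.5% lower of all genes in epilepsy. Of 18 other lysosomal enzymes kept of 30, 3 were higher and 3 lower in epilepsy, among them Dnase2a, a nuclease, higher by 0.17 (adjusted p = 0.000133), and Arsb, arylsulfatase B, lower by a difference of -0.38 (adjusted p = 0.000903). Of 28 other membrane and sorting proteins kept of 30, 8 were higher and 10 lower. Laptm4a, a small transmembrane protein of late endosomes, was higher by 0.69 (adjusted p = 1.25e-12) and lower than in vehicle mice at both doses, by -0.31 at 3 mg/kg (adjusted p = 4.97e-07) and -0.29 at 30 mg/kg (adjusted p = 6.37e-06). Igf2r, the receptor that sorts mannose 6-phosphate tagged hydrolases to the lysosome, was lower by a difference of -0.47 (adjusted p = 3.14e-11), and at 30 mg/kg it was still below naive mice by -0.45 (adjusted p = 1.62e-09). Of 7 other pump genes kept of 13, 2 were higher and 2 lower in epilepsy. Tmem9, an adaptor of the pump, was higher by 0.35 (adjusted p = 3.22e-05), and Rnasek, a pump-associated protein, was higher than in vehicle mice at both doses, by 0.21 at 3 mg/kg (adjusted p = 0.00805) and 0.27 at 30 mg/kg (adjusted p = 0.00152). Of 13 genes that regulate lysosomal genes kept of 22, 3 were higher and 5 lower. Mtor, the kinase that holds TFEB in the cytoplasm, was lower by a difference of -0.54 (SE 0.06, adjusted p = 2.21e-10) and remained below naive mice at both doses, by -0.42 on the low and -0.59 on the high dose. Lamtor1, which anchors the Ragulator complex to the lysosome, was higher by 0.46 (adjusted p = 4.5e-08) and lower than in vehicle mice at 30 mg/kg by -0.26 (adjusted p = 2.81e-05). Against vehicle mice, where 16.3% and 15.7% of all genes were called at 30 mg/kg and 18.5% and 16.9% at 3 mg/kg, 3 of the other enzymes were lower at 30 mg/kg, and at 3 mg/kg 2 were higher and 2 lower. Of the other membrane and sorting proteins 4 were higher and 6 lower on the high dose, and 8 and 6 on the low dose. Of the regulators 5 were higher and 3 lower at each dose.

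Of the 45 genes, 10 had at least 2 kept probes, and of the 8 called in epilepsy with the brightest probe, 7 were called the same way with another and 0 the opposite way. At 30 mg/kg the brightest probe of Atp6ap2 gave a difference from vehicle mice of -0.004 (adjusted p over probes 0.932), whereas its 3 dimmer probes were all higher, by 0.16 to 0.21 (adjusted p over probes 0.00437 to 0.0145). For Atp6v0d1, of the V0 sector, the brightest probe gave 0.07 (adjusted p over probes 0.202) and the other 3 gave 0.10 to 0.26, all called higher. The brightest probe was called too with the run or sets of 8 numbers blocked. The submitters' sample numbers formed 2 runs over which the groups were uneven, with 11 and 6 epileptic vehicle mice and 2 and 13 at 30 mg/kg. With the run as a block, 28 of 28 calls in epilepsy, 19 of 19 at 3 mg/kg and 18 of 22 at 30 mg/kg remained, and those of Ctsl, Glb1, Arsa and Atp6v1a at 30 mg/kg were lost. Within the runs the called differences kept their sign in both, except for Arsa and Atp6v1a at 30 mg/kg. For Ctsh the difference at 30 mg/kg was between -0.72 and -0.67 within the runs, and for Gaa between 0.28 and 0.30.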

How the data were processed

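The samples were 56 hippocampal RNAs, and the platform was the Illumina MouseRef-8 v2 BeadChip. The authors deposited probe signal intensities from GenomeStudio 2011.1, neither background-subtracted nor normalized, each with a detection p-value against negative control probes. The log2 values that the authors deposited too, quantile normalized in lumi, served here as an alternative. Intensities were log2 transformed and quantile normalized. Of 25697 probes, 14058 passed the filter (detection p under 0.05, 6 or more arrays), and 13265 of these had 1 gene by the platform annotation, updated through RefSeq tables. The brightest probe stood for a gene, which left 9893 genes. Quantile normalization forces 1 distribution on all arrays and so can hide a shift shared by many genes.

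Groups and replicate numbers came from the labels. Nothing states litters, so p-values measure the spread between these mice. The number of arrays, 6 in the naive group, limits the precision. Comparisons used limma 3.58.1 under R 4.3.3, fitting 4 group means without covariates by lmFit and then eBayes, with Benjamini-Hochberg adjustment over all genes. Correlations used 100000 resamples (NumPy 2.4.6). The fit was tested on simulated data. The genes and lists were chosen with earlier results of these data known. Genes given with full statistics were taken from the 4 of smallest p in each class and comparison and those called against their class's main direction. Not all of these were given (Ctsd, Grn and Lgmn were among those left out), and some were also given in comparisons where they ranked lower. Genes of other lists were the 2 of smallest p. Further genes named (Atp6v1a, Atp6v1d, Tpp1 and the genes near background) were chosen after their values were seen. Alternatives were normexp background correction, the authors' values, median scaling, other detection filters, the mean of all probes, array weights, sets of 8 sample numbers, runs or replicate numbers as a block, a fit of just the 2 groups at hand, trended and robust eBayes, and the omission of single mice. Added after seeing the data were the omission of each epileptic mouse, of Atp6v1d, and of the earlier run.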

Additional observations from a re-analysis of the deposited data

Results flagged for a closer look

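One value stood far from the others of its group. Neu1, the lysosomal sialidase, had a log2 level of 9.44 in naive replicate 6 while the nearest other naive mouse had 10.08, a gap of 0.656 of the group's whole range, above Dixon's limit for 6 samples. Of 45 genes tested in this way in the naive mice, 1 passed the limit, and chance alone marks about 5% of groups. Without this mouse the rise of Neu1 in epilepsy was 0.37, still past the limma threshold, beside 0.50 with it.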

How the results depend on the processing

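The 104 values called in the 6 comparisons kept their direction in all 4173 alternative values, and 255 of these were no longer past the threshold. The earlier run alone was not among the alternatives. Within the runs, Arsa and Atp6v1a at 30 mg/kg against vehicle mice did not keep their sign in both. The most calls were lost in the later run alone, which holds fewer mice, with 43 of 104 lost overall and 11 of 22 at 30 mg/kg against vehicle mice. Scaling arrays to their median ended 38 calls, with 11 genes lower in epilepsy (7 in the report), 6 lower at 30 mg/kg against vehicle mice (12), 6 higher than in naive mice on the high dose (14) and 6 on the low dose (16), and a median difference of other hydrolases at 30 mg/kg against naive mice of 0.0255 (0.0927). Over all genes, those higher than in naive mice fell as well, from 1300 to 480 on the high dose and from 1133 to 591 on the low dose. The medians of cathepsins then turned from -0.02 to 0.01 at 30 mg/kg and from -0.01 to 0.03 at 3 mg/kg against vehicle mice. The median of all genes in epilepsy was then -0.0574 (-0.005), the farthest from 0 of the 6 comparisons, and the cause of these changes was not tested. The comparison of the doses was the least stable. It called 2 genes lower, but 0 after median scaling or with sets of 8 sample numbers as a block, 1 with the run as a block and 1 with no detection filter, and 0 to 3 without single mice. The mean of all kept probes called 1 gene higher. Genes lower at 3 mg/kg than in naive mice numbered 1, but 2 with a stricter detection filter, 2 with array weights, 3 with sets of 8 as a block and 1 to 3 without single mice. For 65 pairs of same-numbered mice of 2 groups, the median r of their deviations was 0.0482 (-0.432 to 0.386, with 19 pairs over 0.1). For mice with other numbers the median was -0.005. These values cannot decide whether the numbers pair mice, since the numbers also follow the order of the arrays. With the number as a replicate block, 27 of 28 calls in epilepsy, 21 of 22 at 30 mg/kg, 19 of 19 at 3 mg/kg and 1 of 2 between the doses remained, with the latter count of lower genes at 1. The later run alone and the omission of each epileptic mouse were chosen after seeing the data. Signal near background limits Ctss and Gla.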
